A study of Psychotria gabriellae and Psychotria semperflorens with 6 samples.

Results

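The 91 contigs described here are abundant leaf transcripts of Psychotria semperflorens, which the labels call a nickel non-accumulator, that were scarcer in the leaves of its relative Psychotria gabriellae, a nickel hyperaccumulator. They were chosen from 60899 contigs by their read counts. A contig is a sequence assembled from reads, here from 1 P. gabriellae plant. CPM is the read count of a contig scaled to a common library total, with no other normalization. A contig was taken if its mean over the 6 libraries was at least 10 CPM, its lowest value in P. semperflorens exceeded its highest in P. gabriellae, and its mean in P. semperflorens was at least 4 times that in P. gabriellae.

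Leaves of 3 wild plants of each species, from rain forest on serpentine soil in New Caledonia, were frozen in the field and polyA RNA was sequenced, with 1 plant per library and no treatment. At Monts Koghi, 1 plant of each species was taken on 30 October (P. gabriellae plant 1 and P. semperflorens plant 3) and 1 on 4 November (P. gabriellae plant 3 and P. semperflorens plant 1). At Riviere Blanche, plant 2 of each species was taken on 10 March of the following year. The labels give no plant age and no nickel content, and each species is represented by 3 individuals. Library totals ran from 29905486 reads in P. gabriellae plant 3 to 62064930 in P. gabriellae plant 2, so that 10 reads equalled 0.161 to 0.334 CPM.

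Serpentine soils are rich in nickel and poor in several nutrients. Most plants on them keep the metal out of their shoots, whereas hyperaccumulators load it into the xylem and store it in leaf cells, largely in vacuoles and bound to organic acids. Transporters that move metals across membranes, small chelating molecules and the handling of iron are the functions most often studied in comparisons of such species. The files pair no contig with a gene name or a sequence, so none of these functions could be looked up, and the leaf label could not be checked against marker genes. Contigs are therefore given by identifier. Contig length is not known either, so a CPM value is a share of reads and does not rank transcripts by number of molecules. In whole leaves, fewer cells of a type and less RNA per cell cannot be told apart.

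The rule chose members by the difference between the species, so the values of that difference are a description. In all, 13853 contigs met the limit on mean CPM and are called abundant contigs here. Of these, 132 had a ratio of means of at least 4, and 41 of these were left out because plants of the species overlapped. The remaining 91 were 0.657% of the 13853. Lack of overlap alone, with P. semperflorens higher, held for 1038 of the 13853, or 7.49%. The ratio of means among the 91 had a median of 6.55 and quartiles of 5.01 and 10.5. It lay between 4.04 and 8 in 61 contigs, was at least 8 in 30, at least 16 in 16 and at least 100 in 4.

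In P. gabriellae the median level of the 91 was 5.98, 3.13 and 6.09 CPM in plants 1, 2 and 3. In P. semperflorens it was 37.1, 45.2 and 36.7 CPM. All abundant contigs had medians of 25.8 to 29.9 CPM in the 6 libraries. The 91 thus sat near or moderately above the middle of these contigs in P. semperflorens and below it in P. gabriellae. In a P. semperflorens library, 1 to 5 of them (1.10% to 5.49%) were among the 100 most abundant contigs, against 0.722% of abundant contigs. Among the 1000 most abundant were 9 to 11 (9.89% to 12.1%), against 7.22%. The rule favours contigs that are high in P. semperflorens, so these shares are a description.

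**Figure D1:**
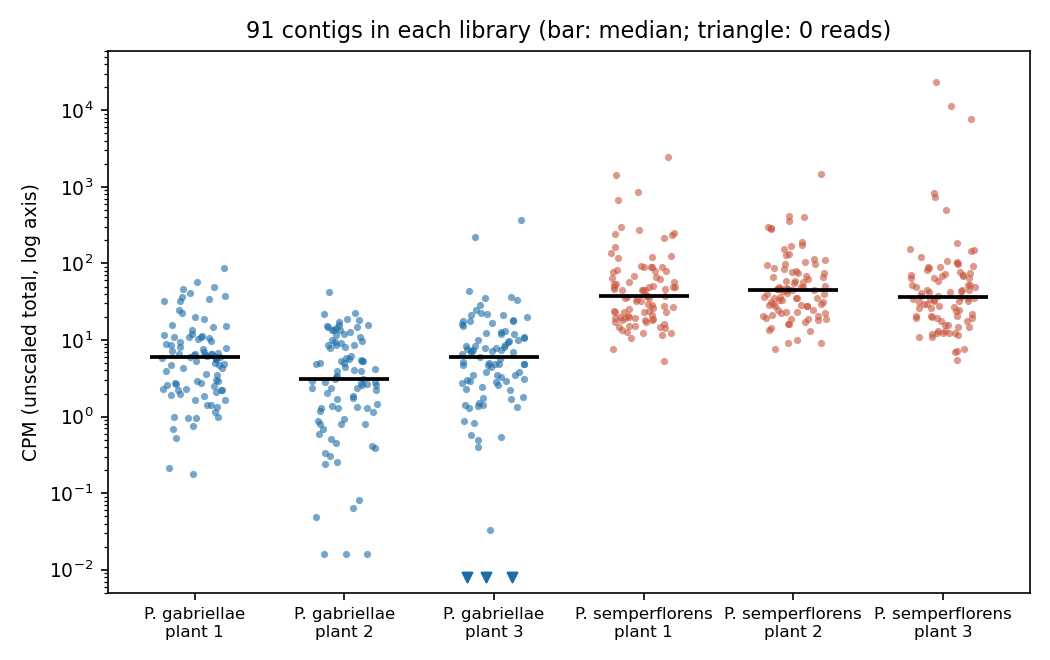
CPM of the 91 contigs in each of the 6 libraries on a log axis, with 1 point per contig and a bar at the median of the library. The medians are 3.13 to 6.09 CPM in P. gabriellae and 36.7 to 45.2 CPM in P. semperflorens, 3 contigs have 0 reads in P. gabriellae plant 3, and the 3 highest points, at 7606 to 23468 CPM, are in P. semperflorens plant 3.

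Nearly all of the 91 were detected in the hyperaccumulator as well. The contigs were assembled from 1 P. gabriellae plant, so a transcript absent from that plant could not be among them. Detection in this species is therefore partly set by the reference and does not show that the species differ in level alone. In P. semperflorens each held at least 247 reads in every library, and 84 of the 91 held at least 10 reads in all 6. A count of 0 occurred in P. gabriellae plant 3 alone, for 3 of the 91. Pgab_v2_contig_44836 had 12, 5 and 0 reads in P. gabriellae plants 1, 2 and 3 and 12400, 2116 and 3441 in P. semperflorens plants 1, 2 and 3. This was the largest ratio of means in the set, at 1256, and the lowest P. semperflorens value was 170 times the highest P. gabriellae value. Pgab_v2_contig_17912 had 451, 1 and 0 reads in P. gabriellae plants 1, 2 and 3 and 1266, 847 and 937 in P. semperflorens. Pgab_v2_contig_15524 had 338, 1 and 0 reads in P. gabriellae and 2081, 1705 and 662 in P. semperflorens. These last 2 contigs were therefore present in 1 hyperaccumulator plant and at 1 read or none in the other 2. The 3 contigs are named because they are few, after their values were seen, and a count of 0 in that library allows up to 3 reads, or 0.100 CPM.

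The distance between the nearest plants of the 2 species cannot exceed the ratio of means, and it is given here as a description. The lowest P. semperflorens value was at least 4 times the highest P. gabriellae value in 18 contigs, at least 2 times in 57 and under 1.5 times in 18, with a median of 2.44. At the limit of overlap, the 2 contigs just inside had values 1.08 and 1.10 times the highest P. gabriellae value, and the 2 just outside 0.948 and 0.920 times. At the limit of the ratio, the nearest contigs inside were at 4.04 and 4.05 and those outside at 3.998 and 3.997. At the limit of abundance, the nearest inside had means of 10.002 and 10.3 CPM and those outside 9.97 and 9.83 CPM. Values thus ran on without a break across each limit.

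**Figure D2:**
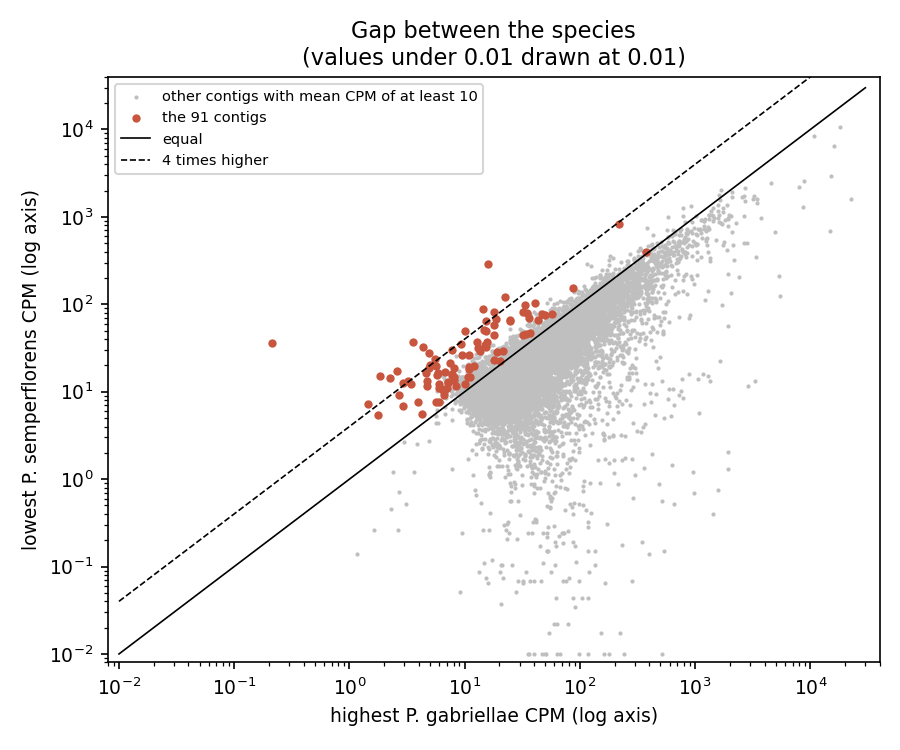
Highest P. gabriellae CPM against lowest P. semperflorens CPM for the 13853 abundant contigs, both on log axes, with the 91 in red and lines for equal values and a 4 times higher P. semperflorens value. Of the 91, 18 lie at or above the dashed line and all lie above the solid one, as the rule requires.

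The 2 contigs with the highest level in their lowest P. semperflorens plant were Pgab_v2_contig_12043 and Pgab_v2_contig_45927. Pgab_v2_contig_12043 was at 2437, 1463 and 825 CPM in P. semperflorens plants 1, 2 and 3 and at 6.59, 0.693 and 220 CPM in P. gabriellae plants 1, 2 and 3. Its means were 1575 ± 812 CPM (SD, n = 3) and 75.6 ± 125 CPM (SD, n = 3). Pgab_v2_contig_45927 was at 855, 401 and 496 CPM in P. semperflorens and at 4.84, 0.258 and 372 CPM in P. gabriellae, or 584 ± 239 and 126 ± 213 CPM (SD, n = 3 each). Within the hyperaccumulator both contigs were high in plant 3, low in plant 1 and lowest in plant 2. In Pgab_v2_contig_45927 plant 3 came within 1.08 times of the lowest P. semperflorens plant. Their fitted log2 differences were 4.70 (SE 1.81) and 2.51 (SE 1.88), and 8.81 and 7.87 without P. gabriellae plant 3.

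Similar departures of 1 plant occurred in other members. A P. gabriellae plant was at least 5 times above both other plants of its species in 13 of the 91, namely plant 1 in 7, plant 3 in 5 and plant 2 in 1. The 5 of plant 3 include Pgab_v2_contig_12043 and Pgab_v2_contig_45927, described above. Among all abundant contigs these shares were 2.10%, 0.267% and 0.462%, against 7.69%, 5.49% and 1.10% of the 91. The 7 contigs raised in plant 1 stood at 6.04 to 49.3 CPM there and at 0 to 7.39 CPM in plants 2 and 3. Their P. semperflorens mean was 1.79 to 4.80 times the plant 1 value, with a median of 2.47. In ratio, plant 1 was thus closer to the P. semperflorens mean than to the other plants of its own species in each of the 7. In the opposite sense, plant 2 was at least 5 times below both others in 10 of the 91, plant 3 in 5 and plant 1 in 1, or 11.0%, 5.49% and 1.10%. The shares over abundant contigs were 2.24%, 0.469% and 0.628%. The rule uses the values of all 6 plants and keeps contigs that are low in P. gabriellae, so all these shares are a description. Their differences from the shares over abundant contigs were not tested.

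A minority of the 91 had nearly the same level in every P. semperflorens plant. The coefficient of variation (CV, the SD divided by the mean of the 3 plants) was under 0.2 in P. semperflorens in 15 of the 91 (16.5%), against 43.5% of abundant contigs. In these 15 the lowest P. semperflorens value was at least 2.02 times the highest P. gabriellae value, with a median of 3.62. The steadiest 3 are named here after their values were seen. Pgab_v2_contig_16542 was at 89.0, 83.9 and 81.8 CPM in P. semperflorens plants 1, 2 and 3 and at 31.9, 8.72 and 21.1 CPM in P. gabriellae. Pgab_v2_contig_15825 was at 121, 133 and 121 CPM and at 22.4, 17.4 and 20.3 CPM, so that plants of each species lay close together and the species far apart. Pgab_v2_contig_15826 was at 82.7, 87.3 and 92.4 CPM and at 10.3, 18.1 and 12.1 CPM. The ratios of means in the 15 were modest, from 4.05 to 8.91.

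The median CV of the 91 lay above that of abundant contigs in each species. It was 0.506 in P. semperflorens and 0.649 in P. gabriellae, against 0.225 and 0.279 over the 13853 abundant contigs. The 126 contigs that the mirrored rule finds higher in P. gabriellae had medians of 0.442 and 0.497. The rule itself uses the values of all 6 plants, so these CVs are given as a description and their differences were not tested.

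The share of reads held by the 91 depended on 1 plant. They held 1.04%, 0.782% and 4.87% of the reads in P. semperflorens plants 1, 2 and 3 and 0.0949%, 0.0543% and 0.137% in P. gabriellae plants 1, 2 and 3. In P. semperflorens plant 3, 4 contigs that were at least 5 times above both other plants of that species held 4.34% of all reads, and the other 87 held 0.528%. Such contigs were 4.396% of the 91 for plant 3, against 1.03% of abundant contigs. Plants 1 and 2 of P. semperflorens had 1 and 2 of them (1.10% and 2.20%, against 0.224% and 0.361%), and these shares also describe values that the rule used. Without these 4, the shares were 0.792%, 0.731% and 0.528% in P. semperflorens against 0.0522% to 0.129% in P. gabriellae, and that the groups do not overlap is fixed by the rule. By the mirrored rule, the 126 contigs held 1.02% to 1.30% of P. gabriellae reads and 0.144% to 0.191% of P. semperflorens reads.

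The 4 contigs are named for their small number. Pgab_v2_contig_27779 was at 1443, 292 and 7606 CPM in P. semperflorens plants 1, 2 and 3 and at 4.70, 2.93 and 16.02 CPM in P. gabriellae plants 1, 2 and 3. Its lowest P. semperflorens value was 18.3 times its highest P. gabriellae value. Pgab_v2_contig_14434 was at 69.0, 49.0 and 747 CPM in P. semperflorens and at 15.5, 14.8 and 9.63 CPM in P. gabriellae. The other 2 are the contigs lowest at Riviere Blanche, described with the sites below. In all 4 contigs the P. semperflorens plants ran in the order 3, 1, 2, and in 3 of them, all but Pgab_v2_contig_14434, plant 3 was also the highest in P. gabriellae. The plants numbered 3 were collected on different days at Monts Koghi.

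The same measure was then read in plants that had no part in a choice. For each collection day, the rule was applied to the 4 plants of the other 2 days and the P. semperflorens to P. gabriellae ratio, on a scale of log2(CPM + 0.5), was read in the pair left out. With 4 November left out, 148 contigs were chosen, and 119 of them (80.4%) were higher in the P. semperflorens plant of that day. The share was 43.5% over the 13807 contigs that met the limit on mean CPM in the 4 plants used to choose. Such contigs, called all contigs here, were not matched in level to the chosen ones. With 10 March left out, 121 of 160 (75.6%) were higher, against 43.5% of 13978. With 30 October left out, 135 of 222 (60.8%) were higher, against 55.3% of 13660, a share near that of all contigs.

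A difference of at least 4-fold recurred less often than the direction. In the pair left out, 57 of 148 contigs (38.5%) reached it on 4 November, 60 of 160 (37.5%) on 10 March and 52 of 222 (23.4%) on 30 October. Over all contigs the shares were 2.52%, 3.17% and 2.46%. The median log2 ratio was 1.39, 1.36 and 0.38 in the pairs left out, against 2.51, 2.48 and 2.70 in the plants used to choose. A ratio of at least 4-fold in the opposite direction occurred in 6, 7 and 29 of the contigs (4.05%, 4.38% and 13.1%), against 3.45%, 2.02% and 2.35% of all contigs. On 30 October both directions were thus more frequent among the chosen contigs than among all. The choices overlap with each other and, in 75, 60 and 78 contigs, with the 91, and each reading rests on 1 plant per species.

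**Figure D3:**
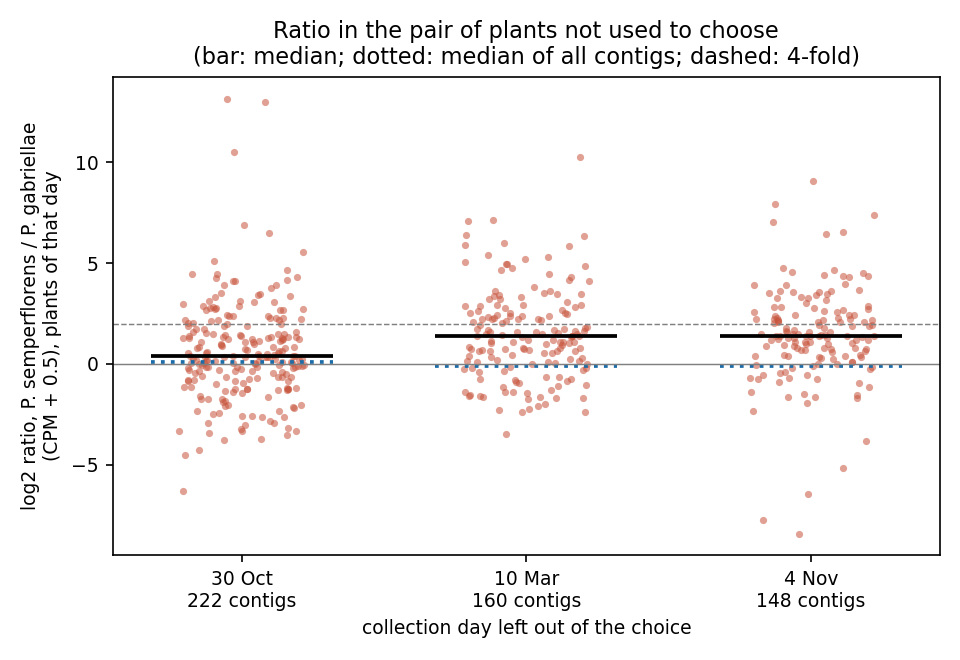
Log2 ratio of P. semperflorens to P. gabriellae (CPM + 0.5) in the pair of plants left out of the choice, by collection day. Each chosen contig is 1 point, with a black bar at their median. A dotted bar marks the median of all contigs that met the limit on mean CPM in the plants used to choose. The black bars are at 0.38, 1.36 and 1.39 for 30 October, 10 March and 4 November, all under the dashed 4-fold line, and points below 0 occur on each day.

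Plants of the same day were also compared for the 91 themselves. On the log2(CPM + 0.5) scale the median ratio was 2.41 on 30 October, 2.48 on 4 November and 3.20 on 10 March. It was at least 4-fold in 59, 61 and 78 of the 91 on these days, and on all 3 days in 31. The ratio was largest on 10 March in 39 of the 91 (42.9%), against 28.1% of all abundant contigs, on 30 October in 29 (31.9% against 46.8%) and on 4 November in 23 (25.3% against 25.1%).

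**Figure D4:**
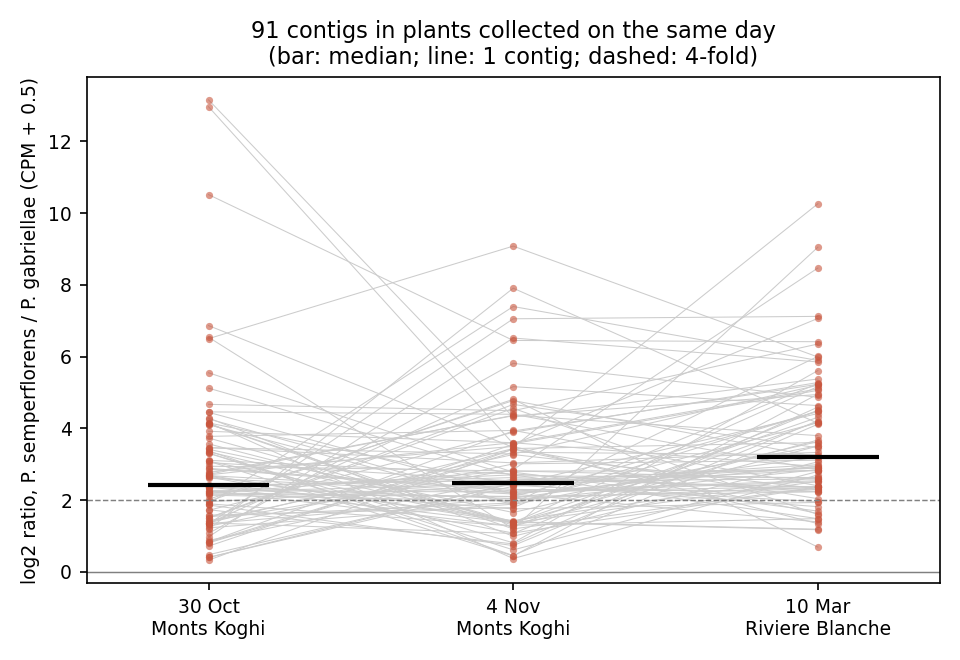
Log2 ratio of P. semperflorens to P. gabriellae (CPM + 0.5) for the 91 contigs in plants collected on the same day, with 1 line per contig, a bar at the median and a dashed line at 4-fold. The median is 3.20 for the pair from Riviere Blanche and 2.41 and 2.48 for the pairs from Monts Koghi, and all ratios are above 0 because the rule requires it.

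Whether the levels of the 91 differed between the sites, a contrast the rule did not use, was tested in a model with species and site fitted to 53478 contigs. Riviere Blanche was visited in March and Monts Koghi in October and November, so site and season cannot be told apart. Of the 91, edgeR's quasi-likelihood test called 0 at an adjusted p under 0.05, as it did for 0% of the 13846 abundant contigs tested. DESeq2 called 4, against 2.09% of abundant contigs, and 3 of the 4 were higher at Riviere Blanche, against 0.874%. At an unadjusted p under 0.05 edgeR gave 6 of the 91 (6.59%), against 10.2% of abundant contigs. Of the 6, 4 were higher at Riviere Blanche and 2 lower, against 6.63% and 3.55%. The median log2 difference, Riviere Blanche minus Monts Koghi, was -0.13 over the 91 and 0.11 over the abundant contigs, with a median standard error of 0.67 among the 91. With this spread between 6 plants the test has little power for differences of about 4-fold, so its count of 0 does not show that the sites were alike.

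The 2 contigs with the highest fitted site difference were Pgab_v2_contig_13345 and Pgab_v2_contig_1817. Pgab_v2_contig_13345 was at 285 CPM in the P. semperflorens plant of Riviere Blanche and at 24.1 and 6.93 CPM in plants 1 and 3, whereas in P. gabriellae it was at 0.306 CPM at Riviere Blanche and at 2.29 and 2.91 CPM in plants 1 and 3. Its site difference of 2.39 (SE 1.96, edgeR adjusted p = 0.737) therefore joined opposite directions in the species, and it was -2.92 without P. semperflorens plant 2. Pgab_v2_contig_1817 was at 15.4 CPM at Riviere Blanche against 2.77 and 2.57 CPM in P. gabriellae plants 1 and 3, and at 114 against 64.1 and 71.4 CPM in P. semperflorens plants 1 and 3. It was higher at Riviere Blanche in both species, by 1.84 on the log2 scale (SE 0.42, edgeR adjusted p = 0.507, DESeq2 adjusted p = 0.0301).

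The 2 contigs with the lowest site difference were Pgab_v2_contig_53591 and Pgab_v2_contig_15549, both among the 4 that were highest in P. semperflorens plant 3. Pgab_v2_contig_53591 was at 667, 97.2 and 23468 CPM in P. semperflorens plants 1, 2 and 3 and at 2.07, 1.85 and 33.1 CPM in P. gabriellae. Pgab_v2_contig_15549 was at 302, 65.6 and 11561 CPM and at 0.946, 1.48 and 24.98 CPM. The plant of Riviere Blanche was the lowest of its species in P. semperflorens for both contigs, and in P. gabriellae it was close to plant 1. The fitted differences were -4.46 (SE 2.06) and -4.25 (SE 2.09; edgeR adjusted p = 0.575 and 0.591, DESeq2 adjusted p = 0.0403 and 0.0689). With 1 library left out they spanned -6.69 to -2.88 and -6.23 to -2.55.

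A model with the product of species and site asked whether the species difference was of another size at Riviere Blanche. It leaves 2 residual degrees of freedom, rests on 1 plant per species there, and is not fully independent of the rule, which bounds the value of every plant. EdgeR's quasi-likelihood test called 0 of the 91 and 0% of abundant contigs at an adjusted p under 0.05, a count that says nothing of the size of the difference, since so small a design can hardly pass that threshold. At an unadjusted p under 0.05 it gave 21 of the 91 (23.1%), of which 20 had a larger species difference at Riviere Blanche, against 5.58% of abundant contigs in either direction and 3.13% in that direction. DESeq2 called 10 of the 91, all with a larger difference there, against 1.57% of abundant contigs in either direction and 1.09% in that direction. The median interaction was 0.85 on the log2 scale over the 91 and -0.05 over the abundant contigs, with a median standard error of 1.10 among the 91. Without P. gabriellae plant 1 the median fell to 0.24, and without each of the other Monts Koghi plants it was 0.60 to 1.13.

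The order of plants within each species is another reading of the same 6 values and no separate support. The plant of Riviere Blanche was the highest of its species in P. semperflorens and the lowest in P. gabriellae in 17 of the 91 (18.7%), against 7.29% of abundant contigs and 7.71% of those whose groups did not overlap with P. semperflorens higher. The reverse order occurred in 3 (3.30%), against 11.5% and 11.2%. That plant was the highest in both species in 11 (against 15.4%) and the lowest in both in 11 (against 15.9%). Pgab_v2_contig_12043 and Pgab_v2_contig_45927 had interactions of 7.03 (SE 2.78) and 8.60 (SE 3.23; edgeR adjusted p = 0.698 and 0.678, DESeq2 adjusted p = 0.0311 and 0.0074). Both had their lowest value in P. gabriellae plant 2, from Riviere Blanche.

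The identifiers of the contigs end in a number, and among the 91 consecutive numbers made up 4 pairs. Alleles, isoforms or fragments of 1 gene cannot be told from separate genes by these files. Among 75 abundant contigs that stood next in number to one of the 91, 14 did not overlap between the species with P. semperflorens higher, and 8 of these 14 were the paired members. Of the other 67 neighbours, 6 did (8.96%), close to the 7.49% of all contigs at that abundance. The meaning of the numbers is not given in the sources used here.

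The ratio between paired contigs moved less across the libraries in 3 of the pairs than in the fourth. Pgab_v2_contig_15825 and Pgab_v2_contig_15826, given above, had ratios of means of 6.26 and 6.49, but the first was 0.959 to 2.18 times the second, and their P. gabriellae plants ran in opposite order. Pgab_v2_contig_9532 and Pgab_v2_contig_9533 had ratios of 4.96 and 4.16, and the first was 1.14 to 1.55 times the second in the 6 libraries. Pgab_v2_contig_13418 and Pgab_v2_contig_13419 had ratios of 5.10 and 6.22, with 0.913 to 1.61 times between them. Pgab_v2_contig_18921 and Pgab_v2_contig_18922 had ratios of 6.00 and 7.48, with 0.994 to 1.48 times between them. Counting each pair as 1 leaves 87.

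In the test of the species over all 53478 contigs, edgeR called 7 of the 91 higher in P. semperflorens at an adjusted p under 0.05, and 0.0506% of abundant contigs. With collection day as a block it called 0 of the 91 and 0% of abundant contigs, with 90 of the 91 and 6.23% of abundant contigs at an unadjusted p under 0.05. DESeq2 without a block called 73 of the 91 and 1.43% of abundant contigs. Since the rule used this contrast, nothing is read from these counts. The 7 called contigs had means of 25.9 to 125 CPM in P. semperflorens and ratios of means of 4.74 to 17.1. Their lowest P. semperflorens values were 2.78 to 8.08 times their highest P. gabriellae values, and the 4 contigs with ratios of at least 100 were not among them.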

How the data were processed

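Per the series' design text, reads of both species were counted on contigs assembled de novo from 1 P. gabriellae plant. The authors deposited raw counts of reads per contig, which are whole numbers whose sums differ between libraries. For the aligner, the counter, the use of strand and filters, nothing is given in the sources used here. Sequence differences can lower the counts of P. semperflorens reads on these contigs. Replicates are separate plants, and counts of plants of 1 species differed by more than sampling noise (lowest chi-square over degrees of freedom 103).

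CPM for the choice of members used unscaled totals. Tests used R 4.3.3, edgeR 4.0.16 (filterByExpr by species, TMM factors, quasi-likelihood test, Benjamini-Hochberg adjustment over all contigs, standard error as the log2 difference divided by the square root of F) and DESeq2 1.42.0 as an alternative, whose adjusted p was missing for 3 of the 91 in the species test. EdgeR was also run on simulated counts in which 100 contigs were changed 4-fold and 100 were changed 16-fold in each comparison. The changed contigs were drawn at random from those with a mean of at least 10 CPM and were not matched to the 91. Of those changed 4-fold it found 2 for the species and 1 for the sites. Of those changed 16-fold it found 87 and 71, with 10 and 3 false calls among unchanged contigs. For the interaction it found 0 at either size. Members and lists were chosen with earlier results of these data known. The contigs named by rule are the 2 with the highest CPM in their lowest P. semperflorens library and the 2 highest and 2 lowest by fitted site difference.

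Collection day, from the labels, pairs the plants across species. After removing species means, log2 CPM deviations of same-day plants correlated across contigs at 0.18 on 30 October, 0.20 on 10 March and -0.07 on 4 November.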

Additional observations from a re-analysis of the deposited data

Results flagged for a closer look

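In 17 of the 91 contigs (18.7%, against 7.29% of abundant contigs) the plant of Riviere Blanche was the highest of its species in P. semperflorens and the lowest in P. gabriellae, and in 3 the reverse (3.30%, against 11.5%). In these 20 the species moved in opposite directions between the sites, and in 22 others that plant was the highest or the lowest in both species. The difference was not tested for the counts themselves. The order of plants and the interaction are readings of the same 6 values, and neither is fully independent of the rule. For single contigs the interaction test of edgeR called 0 of the 91, with 21 at an unadjusted p under 0.05 (against 5.58% of abundant contigs), and DESeq2 called 10 (against 1.57%). Among the contigs named by rule, Pgab_v2_contig_13345 had this pattern, with a species difference larger at Riviere Blanche by 7.24 on the log2 scale (SE 1.34, edgeR adjusted p = 0.396, DESeq2 adjusted p = 1.34e-05). That contig was named for its fitted site difference, which reads the same 6 values, so its interaction is no separate support. With 1 plant per species at that site, the site, the season and the single plants cannot be told apart.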

How the results depend on the processing

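The number of contigs the rule chose was 91, and it depended on its limits: 149 at a mean of at least 5 CPM, 49 at 20 CPM, 390 at a ratio of at least 2 and 30 at 8. TMM and RLE scaling each gave 111, within 1.5 times of the 91 and with all 91 among them. With 1 library left out it was 92 to 232. It was 232 without P. gabriellae plant 1 (81 of the 91 among them), 158 without plant 2 (78) and 124 without plant 3 (84). Without P. semperflorens plants 1, 2 and 3 it was 92, 111 and 122, but with only 70, 66 and 77 of the 91 among them. In each of these choices fewer plants had to lie apart, and why the counts differed was not tested. In the species test edgeR called 7 of the 91, 2 without the low-count filter, 0 with the replicate block, 0 with the collection-day block and 0 to 0 with 1 library left out, and DESeq2 called 73. By the labels, plants numbered 1 were collected on different days, as were plants numbered 3, so the replicate numbers do not pair them. Deviations of plants numbered 1, 2 and 3 correlated at -0.002, 0.20 and 0.10. These values are much like those by collection day and do not decide between the pairings, and the plants numbered 2 are the same pair in both. For the sites and for the interaction DESeq2 called 4 and 10 of the 91 and edgeR 0; the cause was not tested. EdgeR's 0 under the other settings is no sign of stability. In simulated counts its interaction test found 0 changed contigs. Its site test found 1 of 100 contigs changed 4-fold, though 71 of 100 changed 16-fold. Those contigs were drawn at random by abundance. The 91 had higher median CVs than abundant contigs (0.506 against 0.225 in P. semperflorens, 0.649 against 0.279 in P. gabriellae). The 71 is therefore no measure of what the test would find among the 91. The interaction could not be fitted without a Riviere Blanche plant. The site difference of Pgab_v2_contig_13345 spanned -2.92 to 4.30 with 1 library left out and reversed to -2.92 without P. semperflorens plant 2. The shares higher in the pair left out and the CVs stayed within the 95% exact binomial interval and within 1 SD, respectively, of the values reported, under the scaling and abundance limits run. That interval takes the contigs as independent, although each share was read in 1 plant per species. It served only as a limit for calling a share changed and does not measure the spread between plants. The interaction without each Monts Koghi plant, and the shares of reads without the 4 contigs or with TMM scaling, were added after the data were seen.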
